A study of Mus musculus with 6 samples.

Results

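The cytochrome P450, glutathione transferase, glucuronosyltransferase, aldehyde dehydrogenase and aldo-keto reductase genes were examined in cultured mouse pancreatic fibroblasts. They were taken by gene symbol from the table of raw counts: every Cyp gene, the cytosolic Gst genes of the alpha, kappa, mu, omega, pi and theta classes, the microsomal Mgst genes, and the Ugt, Aldh and Akr genes. The retinal-oxidizing enzymes Aldh1a1, Aldh1a2 and Aldh1a3, the retinoic acid hydroxylase Cyp26b1 and the sterol demethylase Cyp51 were left out. The rule used no measured value and found 59 of the 14831 genes listed: 15 P450 genes, 14 cytosolic and 3 microsomal glutathione transferases, 3 glucuronosyltransferases, 15 aldehyde dehydrogenases and 9 aldo-keto reductases.

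These families handle small, reactive molecules. P450 enzymes insert oxygen into drugs, sterols, vitamin D and fatty acids, with electrons from a reductase. Aldehyde dehydrogenases oxidize aldehydes to acids and aldo-keto reductases reduce them to alcohols, while glutathione transferases and glucuronosyltransferases attach glutathione or glucuronic acid so that a product can leave the cell. The liver is the best known site of these reactions, but fibroblasts carry their own set, among which Cyp1b1 is a typical P450 of mesenchymal cells.

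RNA from immortalized fibroblasts of mixed strain was sequenced in 6 libraries: 3 carry the genotype label WT and 3 the label Gli2-/-;Gli3-/-, here called labelled KO. The lines had been grown out of the pancreas of adult mice with floxed Gli alleles, then given an eGFP adenovirus plus a dsRed lentivirus (controls) or eGFP and Cre adenoviruses (knockouts), both adenoviruses with a CMV promoter, and infected cells were sorted. Each library came from its own confluent well in DMEM with calf serum. How many lines stand behind the wells is not given in the sources used here, so p-values measure the spread between wells, and a difference between lines and a difference in genotype cannot be told apart.

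Library totals were 31728420 to 33905521 counts for the labelled-WT group and 32781730 to 41035931 for the labelled-KO group. Gli2 went from 27.1 ± 1.19 to 56.2 ± 1.96 CPM (reads of a gene scaled to the library's effective total; mean ± SD, n = 3) and Gli3 from 12.5 ± 0.0440 to 40.8 ± 1.64, both higher in the libraries labelled as lacking them (log2 fold changes of 1.05 and 1.71). A gene count also holds exons outside a floxed part, so this checks the labels only in part. The paper reports that Gli deletion in its fibroblast lines was checked by western blot and qPCR. Gli1 and Ptch1, targets of the pathway that were picked here after their values were seen, fell (log2 fold changes of -2.40 and -1.53). Gli1 had few counts, 40, 50 and 37 in labelled-WT and 4, 10 and 13 in labelled-KO libraries. Fibroblast markers summed to 57411 to 58145 CPM in labelled-WT and 47298 to 49659 CPM in labelled-KO libraries, with Thy1 at 0 to 19 counts. Of 11 such markers, S100a4 rose while Col3a1, Pdgfra, Pdgfrb, Dcn and Lum fell. All 4 mesothelial markers analysed (Msln, Upk3b, Lrrn4, Wt1) were higher in labelled KO, with sums of 21.5 to 24.4 CPM in labelled-WT libraries and 267 CPM in every labelled-KO library. The 5 epithelial and duct markers summed to 14.5 to 15.5 against 31.9 to 33.7 CPM, with Krt8 at 0 to 12 counts. Within that list Krt7 rose from 4.38 to 23.1 CPM while Sox9 went from 8.51 to 6.03 CPM (log2 fold change -0.50, past the adjusted p under the fold limit). The acinar marker Cela1 rose from 8.04 to 14.7 CPM. Of the 2 hepatocyte markers analysed, Ahsg had 130 to 167 counts in labelled-WT libraries and 0 in each labelled-KO library, while the transferrin gene was at 2.91 and 3.46 CPM (log2 fold change 0.25, adjusted p = 0.0939). No macrophage or endothelial marker was called, and of 3 Schwann cell markers only Erbb3, at 4 to 13 counts, was. These marker shifts run with every difference below, and their part in the enzyme results was not tested. In bulk RNA, fewer cells of a type and less RNA per cell cannot be told apart.

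The stretches of DNA just before the start sites are shown first for genes whose RefSeq window ends before the GENCODE gene begins: those among the 5 such called genes that hold a motif match or change most, and the Ugt1a gene to compare with Ugt1a7c. Each is the 250 bases before the RefSeq start on GRCm38.p6, read 5′ to 3′ on the gene's strand. The first 25 bases after the start were found in a GENCODE transcript of the gene for 45 of the families' 56 windows. For Gsta3, Cyp27a1 and Ugt1a7c they were not. Capitals mark matches to the aryl hydrocarbon receptor core GCGTG or to the antioxidant response letters TGACNNNGC, both searched on both strands.
Cyp1b1, chr17:79715062-79715311, minus strand: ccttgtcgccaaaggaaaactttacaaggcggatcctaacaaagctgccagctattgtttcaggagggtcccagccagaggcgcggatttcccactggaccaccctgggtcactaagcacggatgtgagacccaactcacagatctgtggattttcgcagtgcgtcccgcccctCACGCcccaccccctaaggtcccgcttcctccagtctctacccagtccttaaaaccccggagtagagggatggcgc
Gsta3, chr1:21240335-21240584, plus strand: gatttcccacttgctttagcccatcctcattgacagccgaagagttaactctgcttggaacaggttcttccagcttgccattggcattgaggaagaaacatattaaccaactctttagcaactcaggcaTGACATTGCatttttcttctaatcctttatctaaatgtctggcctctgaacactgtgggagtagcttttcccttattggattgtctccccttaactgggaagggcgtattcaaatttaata
Cyp27a1, chr1:74713285-74713534, plus strand: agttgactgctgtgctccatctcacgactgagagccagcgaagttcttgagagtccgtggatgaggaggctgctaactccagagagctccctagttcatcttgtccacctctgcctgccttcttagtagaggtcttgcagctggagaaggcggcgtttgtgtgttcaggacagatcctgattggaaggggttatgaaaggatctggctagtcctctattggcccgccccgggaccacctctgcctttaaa
Ugt1a7c, chr1:88094751-88095000, plus strand: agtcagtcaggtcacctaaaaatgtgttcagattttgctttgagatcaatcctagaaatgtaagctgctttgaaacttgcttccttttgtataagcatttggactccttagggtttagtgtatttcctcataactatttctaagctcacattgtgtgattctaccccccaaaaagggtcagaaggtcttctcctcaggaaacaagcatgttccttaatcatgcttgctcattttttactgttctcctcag
Ugt1a6a, chr1:88134559-88134808, plus strand: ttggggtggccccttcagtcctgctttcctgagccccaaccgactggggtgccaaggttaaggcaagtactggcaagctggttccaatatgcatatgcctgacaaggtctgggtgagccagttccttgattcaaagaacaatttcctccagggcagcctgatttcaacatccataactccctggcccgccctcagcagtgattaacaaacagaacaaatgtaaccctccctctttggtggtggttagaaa
Cyp1b1, lower in labelled KO, held that core on its other strand, read as CACGC, from base -76 to -72 relative to the start, and Gsta3, higher in labelled KO, held TGACATTGC from -121 to -113. The windows of Cyp27a1, Ugt1a7c and Ugt1a6a held neither set of letters. Ugt1a7c and Ugt1a6a are printed together because the pair shares its downstream exons and starts from separate first exons. Among all 47 genes of these families with a window, 15 (31.9%) held GCGTG, against 30.9% of the 27025 genes in the RefSeq table, and 5 (10.6%) held TGACNNNGC, against 11.5%. By call, GCGTG was held by 1 of 11 genes called higher, 1 of 4 called lower and 13 of 32 not called. For TGACNNNGC these were 1, 0 and 4 genes. The GLI letters GACCACCCA occurred in none of the 47 windows and in 0.255% of all genes. In the Gstm5 window TGACCACGC counts for both elements, since it contains CACGC. A match is a description of the letters and not of a binding site.

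Of the 59 genes, 56 had enough counts to be tested. A gene was called where the adjusted p (edgeR quasi-likelihood test, Benjamini-Hochberg over all genes tested) was under 0.05 and the change was at least 1.5-fold. By that rule 19 genes of the families were called, beside 17.7% of all 14289 genes tested. In labelled KO 13 were higher, where 11.6% of all genes were, and 6 were lower, where 6.1% of all genes were. With the adjusted p alone 38 passed, against a background of 58.7%: 19 higher, against 29.9%, and 19 lower, against 28.8%. The groups did not overlap in CPM for 40 of the 56 genes, against 64.2% of all genes. The median log2 fold change was 0.00 for the families and for all genes alike, while the median size of the change was 0.35 in the families and 0.22 over all genes. The counts for Aldh1b1, the mu-class Gstm6 and the mu-class Gstm7 were too low for the test.

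**Figure D1:**
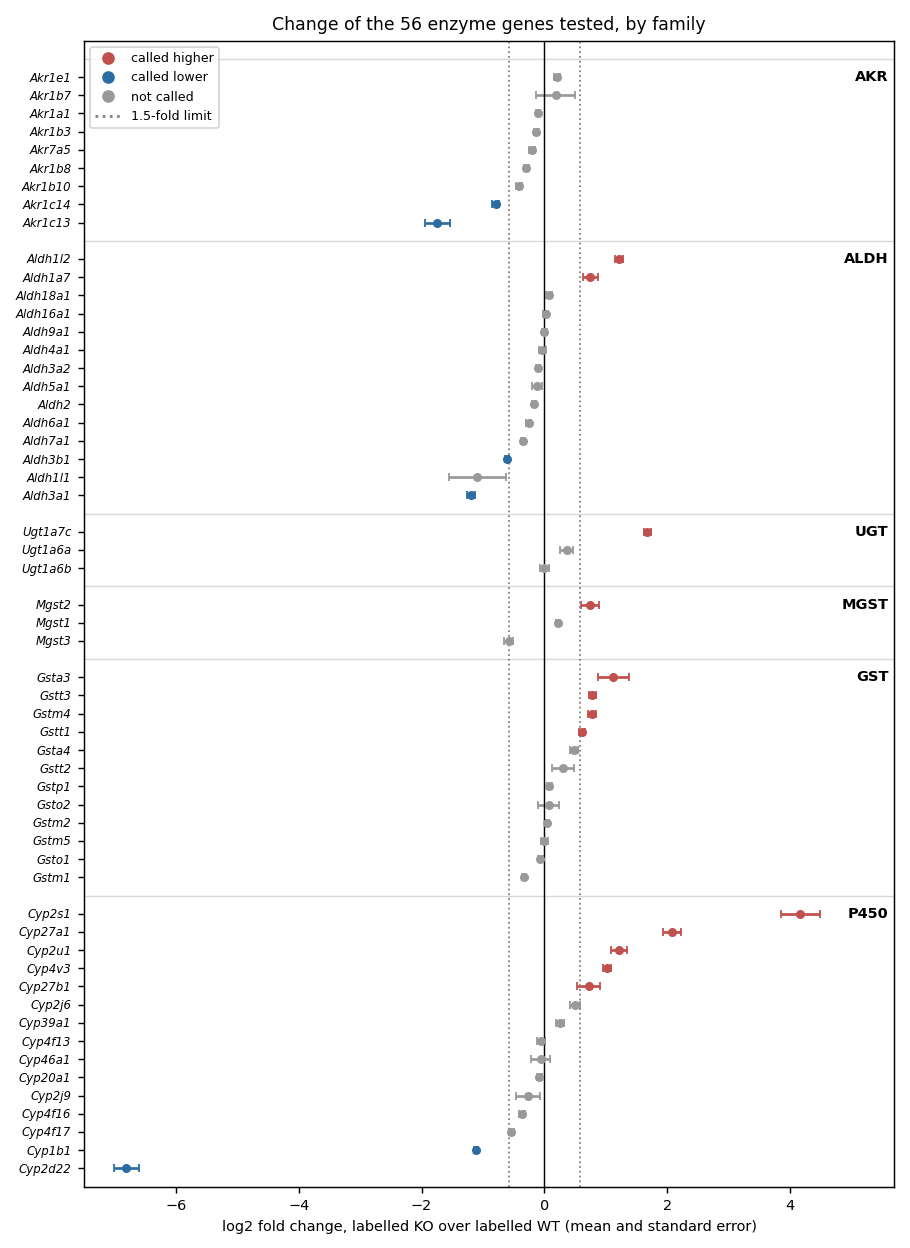
Log2 fold change (labelled KO minus labelled WT) of each of the 56 tested genes, grouped by family, with bars of 1 standard error. Called genes are coloured by direction, and Cyp2d22 at -6.81 and Cyp2s1 at a fitted 4.17, which rests on its few counts in labelled WT, lie farthest from 0.

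Levels per length (RPKM, CPM divided by kilobases of exon) ordered the families. In labelled-WT libraries the cytosolic glutathione transferases summed to 457 ± 13.6 RPKM, the aldehyde dehydrogenases to 260 ± 4.32, the aldo-keto reductases to 211 ± 3.68, the P450 genes to 103 ± 0.832, the microsomal transferases to 60.3 ± 3.46 and the glucuronosyltransferases to 9.36 ± 0.335 (SD, n = 3). In labelled-KO libraries the P450 sum was 84.0 ± 0.444, the aldo-keto reductase sum 178 ± 3.53 and the aldehyde dehydrogenase sum 234 ± 3.36, each below the range of the labelled-WT libraries. The glucuronosyltransferase sum was 15.7 ± 0.208, above that range. The cytosolic and microsomal transferase sums, 447 ± 8.91 and 61.7 ± 1.57, overlapped between groups. No sum was tested, and with 3 libraries against 3 an exact two-sided permutation test cannot go below 0.1.

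The most abundant genes were glutathione transferases and aldehyde-handling enzymes: Gstm1 at 192 RPKM, Gstm2 at 135, the aldehyde reductase Akr1a1 at 96.3, the mitochondrial acetaldehyde oxidizer Aldh2 at 74.8 and the pi-class Gstp1 at 55.6 RPKM in the labelled-WT group. These 5 kept their order in labelled KO, at 152, 138, 89.2, 66.4 and 58.7 RPKM. The called genes lay lower: 5 of the 6 called lower and 6 of the 13 called higher averaged at least 10 CPM in the group where they were higher.

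**Figure D2:**
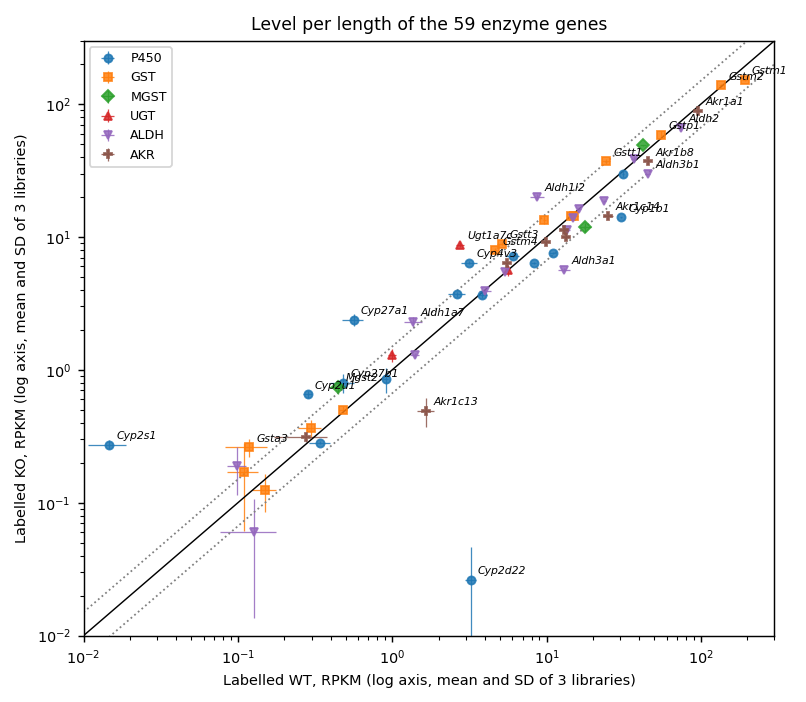
Mean level per length (RPKM, log axis) of the genes in the labelled-KO group against the labelled-WT group, with families by colour and marker, bars of 1 SD, and dotted lines at the 1.5-fold limit. Abundant genes such as Gstm1, Gstm2 and Akr1a1 sit near the diagonal, and Cyp2d22 lies far below it.

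Among the P450 genes, 5 rose, 2 fell and 8 were not called, where 11.6% of all genes were called higher and 6.1% lower. Cyp2d22 and Cyp1b1 fell, and Cyp2s1, Cyp27a1, Cyp2u1, Cyp4v3 and Cyp27b1 rose. Cyp2d22 (chr15:82370527-82380260), of the subfamily that holds human CYP2D6, had 374, 459 and 388 counts in the labelled-WT libraries and 2, 8 and 2 in the labelled-KO libraries. The transcript was thus near the floor in every labelled-KO library, and the groups lay far apart. Mean levels were 12.6 ± 0.965 and 0.103 ± 0.0771 CPM, and the log2 fold change was -6.81 (SE 0.20, adjusted p = 2.63e-11).

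Cyp1b1 (chr17:79701537-79715061) oxidizes aromatic hydrocarbons and oestrogens and is a well-known target of the aryl hydrocarbon receptor. It measured 181, 176 and 176 CPM in labelled-WT and 81.4, 82.9 and 82.1 CPM in labelled-KO libraries. Wells differed little within a group, and the gap between groups was many times that spread. Cyp1b1 was 2.16-fold lower in labelled KO (log2 fold change -1.11, SE 0.03, adjusted p = 9.92e-12). Its level fell from 30.4 to 14.1 RPKM, and its share of the summed P450 level went from 29.7% ± 0.456 to 16.7% ± 0.238. The other abundant P450 gene was Cyp20a1, whose substrate is not established. It measured 31.5 and 29.7 RPKM, overlapped between groups and was not called (log2 fold change -0.08, 95% interval -0.17 to 0.00, adjusted p = 0.0961).

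The P450 genes that rose were all less abundant than Cyp1b1. Cyp2s1 (chr7:25802475-25816913), a P450 of barrier epithelia, had 3, 2 and 2 counts in labelled-WT and 48, 61 and 41 in labelled-KO libraries. It was therefore at the floor in the first group, and at least 14.5-fold higher in the second (adjusted p = 1.88e-07, floor of 3 counts per library). Cyp27a1 (chr1:74713574-74737892), the mitochondrial sterol hydroxylase of bile acid synthesis, had 45, 39 and 34 against 163, 220 and 187 counts. No labelled-WT library reached the lowest labelled-KO value, and the log2 fold change was 2.08 (SE 0.15, adjusted p = 8.86e-08). Cyp27b1 (chr10:127048250-127053006), which makes the active form of vitamin D, had 40, 48 and 32 against 73, 72 and 79 counts. Those few counts gave a wide error, with a log2 fold change of 0.72 (SE 0.19, adjusted p = 0.00497).

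The rest of the P450 genes act on fatty acids and eicosanoids or on sterols. Cyp2u1 (chr3:131288441-131303227), a hydroxylase of long-chain fatty acids, went from 1.53, 1.55 and 1.38 CPM to 3.67, 3.38 and 3.27 CPM, a log2 fold change of 1.21 (SE 0.13, adjusted p = 4.94e-06). Cyp4v3 (chr8:45304944-45333216), the mouse counterpart of a fatty acid hydroxylase mutated in a human retinal dystrophy, measured 10.5, 12.6 and 13.0 CPM against 23.8, 24.9 and 24.7 CPM. Both genes were higher in every labelled-KO library than in any labelled-WT library, and Cyp4v3 had a log2 fold change of 1.02 (SE 0.07, adjusted p = 9.12e-08). The leukotriene hydroxylase genes Cyp4f16 and Cyp4f17 pointed the other way, with log2 fold changes of -0.37 and -0.54 that passed the adjusted p and stayed under the fold limit, while their neighbour Cyp4f13 was at -0.06 (adjusted p = 0.487). Arachidonate-metabolizing Cyp2j6 and the oxysterol hydroxylase Cyp39a1 also passed the adjusted p under the fold limit, at 0.50 and 0.25. Cyp2j9, with a log2 fold change of -0.27, and the cholesterol hydroxylase Cyp46a1, with -0.06, passed neither.

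**Figure D3:**
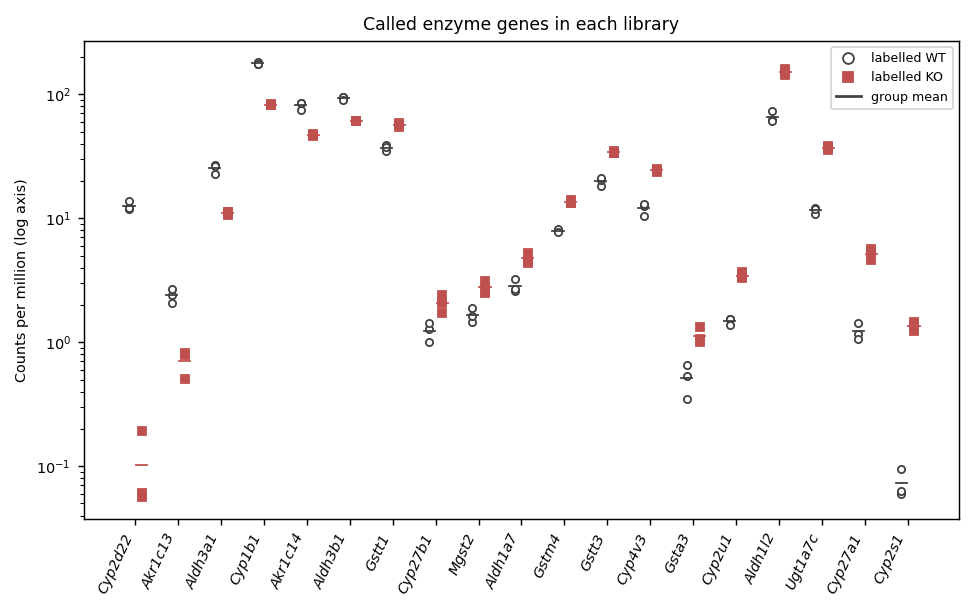
Level of each of the 19 called genes in each of the 6 libraries (CPM, log axis), with labelled-WT and labelled-KO libraries as separate points. No called gene has a library of one group inside the range of the other group.

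Of 12 cytosolic glutathione transferases tested, 4 were called higher and 0 lower, where 11.6% and 6.1% of all genes were. The theta-class genes Gstt3 and Gstt1, which act on small halogenated molecules, lie side by side on chromosome 10 with Gstt2, within 63.3 kb. Gstt3 measured 18.2, 20.3 and 21.2 CPM in labelled-WT and 35.2, 33.8 and 33.7 CPM in labelled-KO libraries. Its neighbour Gstt1 measured 34.8, 39.3 and 37.4 against 54.2, 57.5 and 58.3 CPM. Neither overlapped between groups, with log2 fold changes of 0.78 (SE 0.06, adjusted p = 9.96e-08) for Gstt3 and 0.61 (SE 0.05, adjusted p = 2.95e-07) for Gstt1. Gstt1 lay just inside the fold limit, which is 0.58 on the log2 scale, and without labelled-WT replicate 1 it was at 0.56 and no longer called. Gstt2 was at 1.23 and 1.52 CPM and overlapped (log2 fold change 0.30, adjusted p = 0.182).

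Among the 6 Gstm genes clustered over 149 kb of chromosome 3, of which Gstm6 and Gstm7 were not tested, Gstm4 was the 1 called. It measured 7.91, 8.15 and 7.74 CPM in labelled-WT and 13.4, 14.1 and 13.3 CPM in labelled-KO libraries, a log2 fold change of 0.78 (SE 0.07, adjusted p = 5.19e-07). Gstm1, the gene with the highest RPKM of all the families, measured 271, 293 and 284 CPM against 221, 226 and 225 CPM. Every labelled-KO library was below every labelled-WT library, with a log2 fold change of -0.34 (SE 0.03, adjusted p = 2.32e-06), under the fold limit. Gstm2 overlapped, at 135 and 138 RPKM (log2 fold change 0.04, 95% interval -0.04 to 0.11, adjusted p = 0.375), and Gstm5 was at 0.00. The Gstm1 share of the summed transferase level was 42.0% ± 0.408 in labelled WT and 34.1% ± 0.326 in labelled KO. Of the 50-base stretches in Gstm1 transcripts 18.9% also occur in other genes, so reads of close copies may be split among them.

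The alpha-class gene Gsta3 (chr1:21240589-21265661), whose human counterpart also isomerizes steroid intermediates, had 11, 18 and 21 counts in labelled-WT and 47, 42 and 35 in labelled-KO libraries. The groups were apart at low counts, with a log2 fold change of 1.12 (SE 0.25, adjusted p = 0.00188). Gsta4, which conjugates aldehydes from oxidized lipids, was at 12.2 and 17.0 CPM, past the adjusted p and under the fold limit with 0.48. The omega-class Gsto1 and Gsto2 and the pi-class Gstp1 overlapped between groups, with log2 fold changes of -0.06, 0.07 and 0.08. Gstp1 shares 33.7% of its 50-base stretches with other genes, Gstp2 among them.

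The microsomal transferases, which sit in membranes and act on lipid peroxides or leukotriene precursors, did not move together. Mgst2 (chr3:51660360-51682677) rose from 1.47, 1.88 and 1.63 CPM to 2.49, 3.14 and 2.67 CPM (log2 fold change 0.74, SE 0.15, adjusted p = 0.00105). Mgst3 measured 17.7, 20.7 and 20.4 CPM against 12.6, 14.2 and 12.4 CPM. All its labelled-KO values were below the labelled-WT values, but its log2 fold change of -0.58 (SE 0.07, adjusted p = 2.31e-05) fell just outside the fold limit. Mgst1, the abundant member at 42.0 and 49.0 RPKM, had a log2 fold change of 0.22. The Mgst3 share of the microsomal total was 29.6% ± 0.815 in labelled WT and 19.3% ± 0.973 in labelled KO.

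The glucuronosyltransferases came from the Ugt1a locus (chr1:88095062-88220002), where several first exons are spliced to common last exons. Ugt1a7c had 338, 402 and 381 counts in labelled-WT and 1346, 1483 and 1234 in labelled-KO libraries. It was 3.19-fold higher, without overlap (log2 fold change 1.67, SE 0.06, adjusted p = 6.88e-11). Ugt1a6b, from the same locus, measured 13.1, 13.7 and 13.3 against 13.3, 14.5 and 12.2 CPM. The groups overlapped fully, with a 95% interval of -0.16 to 0.16 around a log2 fold change of 0.00. Ugt1a6a, at 4.31 and 5.57 CPM, passed the adjusted p at 0.37, under the fold limit. Ugt1a7c went from 29.3% ± 0.740 to 56.0% ± 2.28 of the summed level of these 3 genes, and Ugt1a6b from 60.0% ± 1.02 to 35.7% ± 2.65. Between 52.1% and 79.8% of the 50-base stretches of each are shared with the others or with further Ugt1a genes, so how the common exons were counted bears on all 3 values.

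**Figure D4:**
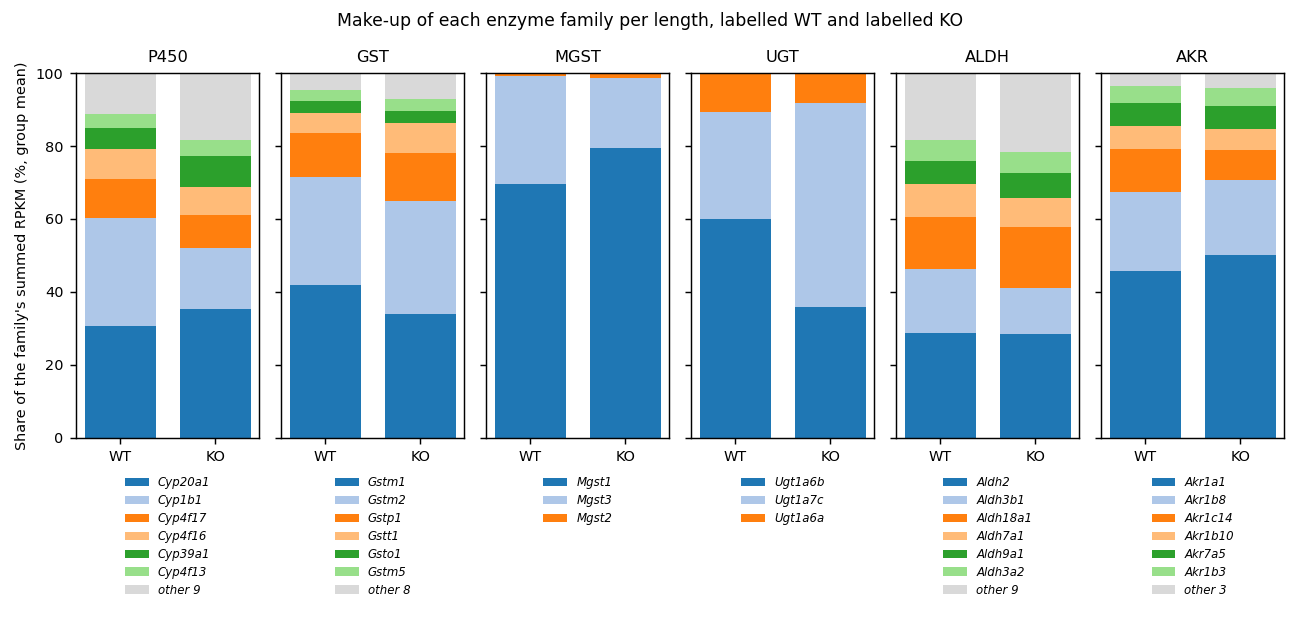
Share of each family's summed RPKM (percent) held by its 6 most abundant genes or fewer, with the rest in grey, in the labelled-WT and labelled-KO groups, as means of 3 libraries. Ugt1a7c widens from 29.3% to 56.0% of the glucuronosyltransferases and Cyp1b1 narrows from 29.7% to 16.7% of the P450 genes, while Gstm1 stays the leading cytosolic transferase.

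Of 14 aldehyde dehydrogenase genes tested, 2 rose and 2 fell, where 11.6% of all genes were called higher and 6.1% lower. Aldh1l2 (chr10:83487450-83534140), which oxidizes formyl-folate in mitochondria, had 2287, 2083 and 1931 counts in labelled-WT and 5611, 6017 and 4986 in labelled-KO libraries. It was 2.32-fold higher without overlap (log2 fold change 1.21, SE 0.06, adjusted p = 3.35e-09), and it moved from 27th to 12th of the 59 genes by RPKM. The cytosolic counterpart Aldh1l1 was near the floor, with 0.830, 0.388 and 0.501 CPM against 0.508, 0.120 and 0.182 CPM. Those groups overlapped, and the log2 fold change of -1.10 (SE 0.46, adjusted p = 0.0588) was not called. Aldh1a7 (chr19:20692953-20727562), a close relative of Aldh1a1, went from 3.25, 2.57 and 2.66 CPM to 5.25, 4.39 and 4.60 CPM (log2 fold change 0.75, SE 0.12, adjusted p = 0.000214). Its transcripts share 7.49% of their 50-base stretches with Aldh1a1.

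Both called genes that fell belong to the Aldh3 subfamily, which oxidizes aldehydes derived from lipids. Aldh3a1 (chr11:61207537-61218421), also known as a corneal protein, measured 22.8, 27.1 and 26.2 CPM in labelled-WT and 11.2, 11.2 and 10.7 CPM in labelled-KO libraries. The log2 fold change was -1.20 (SE 0.07, adjusted p = 1.42e-08), with no overlap. Aldh3b1 (chr19:3913491-3929808) measured 94.9, 94.5 and 90.0 against 61.0, 61.3 and 61.1 CPM. Its log2 fold change of -0.61 (SE 0.03, adjusted p = 9.88e-09) lay just inside the fold limit, and with upper-quartile scaling it was -0.55 and outside it. Aldh3a2, the fatty aldehyde dehydrogenase next to Aldh3a1, differed by only -0.10 on the log2 scale.

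Aldh2, the most abundant aldehyde dehydrogenase, stayed under the fold limit. It measured 387, 386 and 376 CPM against 343, 343 and 334 CPM, without overlap, for a log2 fold change of -0.17 (SE 0.03, adjusted p = 0.000187). Aldh7a1 of lysine breakdown and Aldh6a1 of valine breakdown differed by -0.36 and -0.26 on the log2 scale, past the adjusted p. Aldh18a1 of proline synthesis, Aldh4a1 of proline breakdown, Aldh5a1 of GABA breakdown, Aldh9a1 and Aldh16a1 did not pass the adjusted p, with log2 fold changes between -0.12 and 0.08.

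Of the 9 aldo-keto reductase genes, 0 rose and 2 fell, where 11.6% and 6.1% of all genes were called, and 7 of the 9 were lower past the adjusted p alone, against 28.8% of all genes. Akr1c13 and Akr1c14, hydroxysteroid dehydrogenases, lie in 1 cluster of chromosome 13 with Akr1e1. Akr1c14 (chr13:4049011-4090688) measured 74.4, 84.3 and 85.8 CPM in labelled-WT and 46.0, 46.9 and 48.0 CPM in labelled-KO libraries. It fell with no overlap (log2 fold change -0.80, SE 0.05, adjusted p = 3.51e-08). Akr1c13 (chr13:4191150-4205596) had 76, 69 and 85 against 18, 33 and 27 counts, a log2 fold change of -1.74 (SE 0.20, adjusted p = 8.12e-06). Of its 50-base stretches 24.2% also occur in Akr1c12, so the 2 genes' reads may be split. Akr1e1, an anhydrofructose reductase in the same cluster, was slightly higher, with a log2 fold change of 0.21 (adjusted p = 0.00303).

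The other aldo-keto reductases differed by less. Akr1a1 measured 269, 271 and 255 against 247, 248 and 242 CPM, a log2 fold change of -0.11 (SE 0.03, adjusted p = 0.00945). Akr1b8, the next by RPKM at 45.7 and 37.1, was at -0.30 (SE 0.04, adjusted p = 3.4e-05). The groups of both genes were apart, yet both changes were well under the fold limit. Akr1b10, Akr7a5 and the aldose reductase Akr1b3 were at -0.41, -0.20 and -0.13, past the adjusted p. Akr1b7 was below 1 CPM in every library and overlapped.

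Chromosomal neighbours were common, with 34 of the 59 genes in 12 clusters (neighbours within 500 kb). Calls in a cluster of several genes reached 2 only for the theta-class genes on chromosome 10, both higher, and the Akr1c genes on chromosome 13, both lower. No cluster held calls in both directions. The 4 Akr1b genes on chromosome 6, within 121 kb, and the 3 Cyp4f genes on chromosome 17, within 441 kb, held 0 calls.

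The genes that supply, regulate or complement these enzymes were read from 7 lists of 84 genes. Of the 67 tested, 24 were called, 20 higher and 4 lower, beside the same background of 17.7%, 11.6% and 6.1%. None of the 10 electron donors of P450 enzymes was called, and 5 of the 10 passed the adjusted p alone, against 58.7% of all genes. The common reductase Por measured 77.8 and 72.3 CPM (log2 fold change -0.10, SE 0.04, adjusted p = 0.0538).

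In the list around the aryl hydrocarbon receptor, 3 of 6 genes rose and 0 fell, beside 11.6% and 6.1% of all genes. Ahr, the receptor itself, had 708, 775 and 812 counts in labelled-WT and 1672, 1973 and 1526 in labelled-KO libraries (log2 fold change 0.98, SE 0.05, adjusted p = 2.73e-09). The partner gene Arnt2 had 208, 234 and 194 against 601, 693 and 548 counts, a log2 fold change of 1.35, and the quinone reductase Nqo1 had 267, 269 and 225 against 580, 629 and 457 counts, a log2 fold change of 0.94. All 3 were thus higher in every labelled-KO library, whereas Cyp1b1, a known target of the receptor, was lower in every one. Whether the receptor links these genes here was not tested. The receptor's feedback gene Tiparp was at 0.33 and its main partner Arnt at 0.18, both past the adjusted p under the fold limit.

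Among nuclear receptors, 3 of 7 rose and 1 fell, beside 11.6% and 6.1% of all genes. The bile acid receptor Nr1h4 had 35, 49 and 45 against 292, 372 and 290 counts (6.48-fold higher, adjusted p = 8.25e-10). The vitamin D receptor Vdr was at 1.26 and the fatty acid receptor Ppara at 1.11, while the oxysterol receptor Nr1h3 fell by 0.96 on the log2 scale. Ppara had few counts, 33, 19 and 26 against 70, 61 and 61 (SE 0.22). Cyp27a1 and Cyp27b1, of bile acid and vitamin D synthesis, were also called higher, as were 11.6% of all genes. A link of either gene to Nr1h4 or Vdr was not tested.

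Of 12 genes of glutathione supply, 4 rose and 1 fell, beside 11.6% and 6.1% of all genes. The glutathione-cycle genes Ggct and Chac1 rose by log2 fold changes of 2.00 and 0.96 and the cystine carrier gene Slc7a11 by 1.48. Gpx1, a peroxidase, was the other gene to rise. Ggct rested on few counts, 4, 10 and 18 in labelled-WT and 42, 56 and 49 in labelled-KO libraries (SE 0.32). Ggt1, which splits glutathione outside the cell, had 1819, 1887 and 1716 counts in labelled-WT and 559, 611 and 439 in labelled-KO libraries (log2 fold change -1.94, SE 0.06, adjusted p = 2.39e-11). The genes of synthesis itself were not called. Gclc was at -0.25, past the adjusted p, while Gclm at 0.01 and Gss at -0.07 did not pass it.

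Other oxidizing and hydrolysing enzymes gave the largest changes of the 7 lists. Of 17 tested, 6 were called higher and 2 lower, beside 11.6% and 6.1% of all genes. The alcohol dehydrogenase gene Adh7 had 6, 4 and 10 counts in labelled-WT and 568, 668 and 511 in labelled-KO libraries (log2 fold change 6.24, SE 0.15, adjusted p = 4.63e-12). The flavin monooxygenase genes Fmo1 and Fmo5 rose by log2 fold changes of 3.48 and 1.89. For Fmo1 this rested on few labelled-WT counts, 4, 10 and 8 against 82, 111 and 91 in labelled KO (SE 0.24). The carboxylesterase gene Ces1d fell from 3534, 3819 and 3913 counts to 458, 539 and 467 (log2 fold change -3.13, SE 0.05, adjusted p = 8.25e-14). Of 8 other conjugation genes, Papss2, which makes the sulphate donor, was the 1 called (log2 fold change 1.45), beside 17.7% of all genes. Of 7 export pumps, Abcb1a, Abcb1b and Abcc3 were called higher, with log2 fold changes of 3.15, 0.92 and 0.63, and none was called lower. Over all genes 11.6% were called higher and 6.1% lower. Abcc5 fell from 241 to 179 CPM (log2 fold change -0.43), past the adjusted p under the fold limit. Abcc1 at -0.11 and Abcg2 at 0.47 also passed the adjusted p under that limit. Abcb1a had few labelled-WT counts, 15, 9 and 6 against 101, 121 and 85 in labelled KO (SE 0.23).

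**Figure D5:**
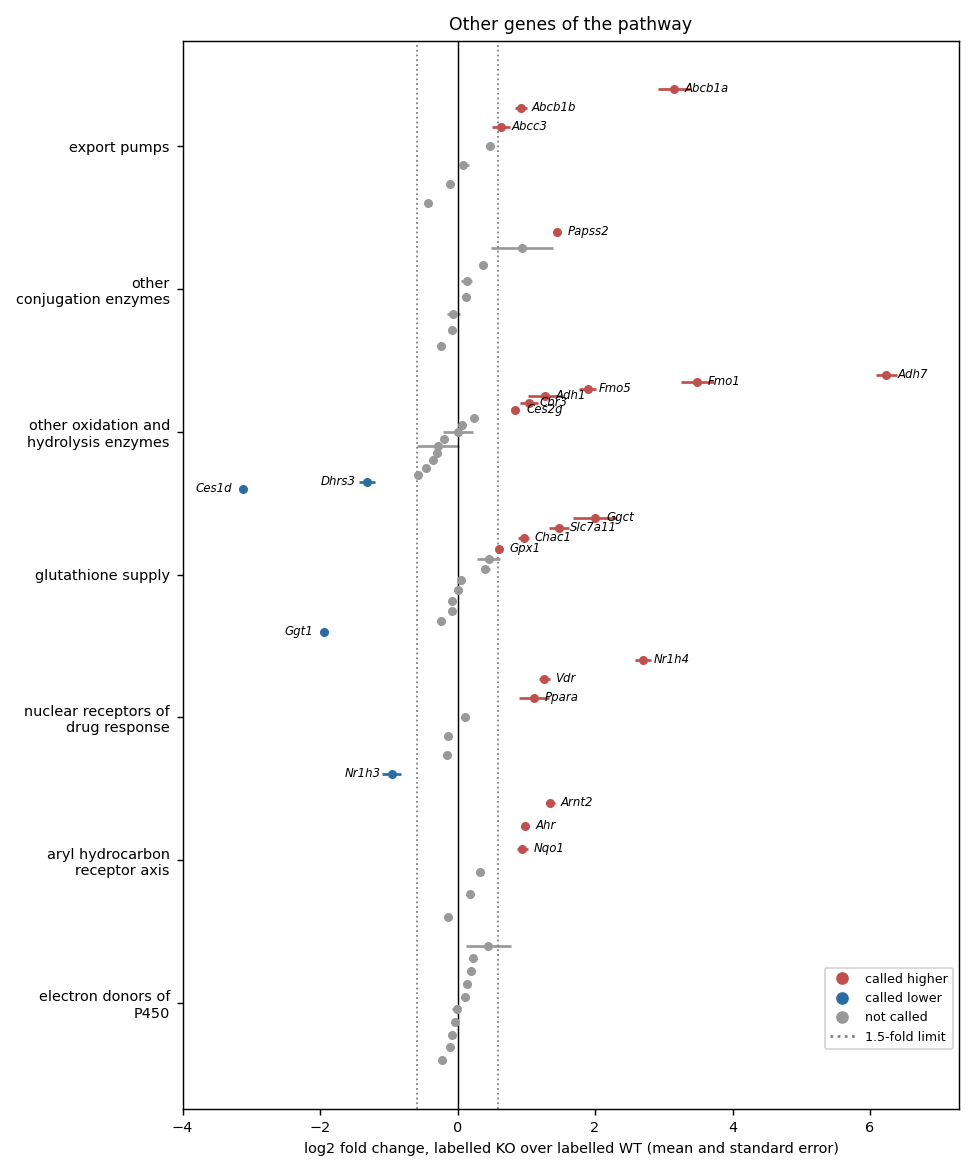
Log2 fold change (labelled KO minus labelled WT) of the 67 tested genes in the 7 lists of other pathway genes, stacked by list, with bars of 1 standard error and called genes coloured by direction. Adh7 at 6.24 and Ces1d at -3.13 are the extremes, and no electron donor is coloured.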

How the data were processed

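The authors deposited raw counts of reads per gene and log2 CPM values made from them by voom. The submitters' processing notes name STAR 2.7.2b, featureCounts, limma and GRCm38.p6. The annotation release and the strand setting are not given in the sources used here. Libraries were polyadenylated RNA made with an NEB kit. Genes with low counts had been removed by the authors. Every value column was used.

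Groups came from the labels. The gene rule, the gene lists and the fold limit of 1.5 were chosen with earlier results of these data known. Counts were tested with edgeR 4.0.16 (R 4.3.3): TMM, filterByExpr and the quasi-likelihood test, with Benjamini-Hochberg adjustment over 14289 genes. The common biological coefficient of variation was 3.74%. RPKM used exon lengths of GENCODE M21 (GRCm38), the source of positions, with a gene's exons merged over all its transcripts. A floor of 3 counts was 0.0720 to 0.0957 CPM, for counting error only. Pairs of libraries within a group differed by a chi-square per degree of freedom of 2.50 to 7.74, so none was a copy of another. On simulated counts of 14104 genes with 200 changed, 97% of the 2-fold and 100% of the 4-fold changes were recovered, with 1 false call. Low-count genes were left out when the changed genes were drawn, and rises and falls were equal in number. These rates therefore do not cover genes near the floor or a split as uneven as the one here.

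Named genes were the called ones, the 2 highest per family by RPKM and those next to the fold limit. Up to 4 called genes per list by size of change, Gli2 and Gli3 were also named. Other genes, given with a value to complete a family or list, were named after their values were seen. Sequence sharing was counted as 50-base stretches of a gene's GENCODE transcripts found in transcripts of other genes. Alternatives were other scalings (RLE, upper quartile, total counts), other filters and fold limits, DESeq2 1.42.0, limma 3.58.1 on the counts and on the deposited log2 CPM, and leaving out each library. Promoter windows were RefSeq's. Protein sequences were not used here.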

Additional observations from a re-analysis of the deposited data

How the results depend on the processing

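Of the 19 called genes, 17 kept their call under every setting tried other than another fold limit, up to 14 for each gene, and 0 reversed. Aldh3b1 was lost with upper-quartile scaling and with total counts (log2 fold change -0.63 to -0.55 over its settings), and Gstt1 was lost without labelled-WT replicate 1 (0.56). Mgst3 gained a call under 5 settings, with log2 fold changes between -0.59 and -0.65, and Aldh1l1 under 3: limma-voom (-1.25), without labelled-WT replicate 2 (-1.32) and without labelled-KO replicate 1 (-1.93). Cyp2d22 and Cyp2s1 were not tested where 10 counts were asked of every library. With no fold limit 38 genes of the families were called, 19 of them lower, and all genes called were 8391. At a limit of 2-fold these were 11, 7 of them higher, and 1456. All calls were 65.6% higher with the 1.5-fold limit, 51.0% with none and 72.3% at 2-fold. Other scalings moved the median of all genes by at most 0.06 on the log2 scale. Leaving out the 9 genes that share 10% or more of their 50-base stretches, an alternative chosen after seeing the data, left 16 called, 11 higher and 5 lower. Of 208 counts over families and lists, 183 were within 1.5 times the reported count. No paired analysis was possible because the labels give no replicate numbers. The replicate numbers used here follow the order of the libraries in the deposited counts. Counts under 50 in every labelled-WT library, as for Cyp2s1, Gsta3 and Cyp27b1, limit precision.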

Other observations

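Rows without a symbol in the table were matched by identifier to GENCODE names, and 2 of them belong to the P450 family. The row of Cyp2w1 had 0 counts in each labelled-WT library and 30, 26 and 23 in the labelled-KO libraries. That of Cyp2c23 had 4, 3 and 7 against 18, 16 and 15 counts. Both were chosen after their values were seen and are in none of the counts above.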
